A study of Mus musculus with 12 samples.

Results

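The genes described here encode laminins, nidogens, proteoglycans, adhesive glycoproteins and elastic-fibre proteins of the extracellular matrix, together with the lysyl oxidases that crosslink matrix fibres. They were picked by gene symbol from a list of 52 genes, with no measured value in the rule, and 50 of them were found among the 26967 genes listed at d0 or d4. The list was drawn up with earlier results of these data known. Counts of these genes set beside the share of all genes therefore describe the list and are no independent test. Thbs4 and Fbn2 were not analysed here. RNA was sequenced from C2C12 cells, a mouse myoblast line that fuses into myotubes when serum is lowered. Unedited wild-type (WT) cells were compared with cells homozygous for the knock-in allele PGAM2-K176R, called mutant below, in which a lysine of the muscle form of the glycolytic enzyme phosphoglycerate mutase is replaced by arginine. Each genotype was harvested at d0 in growth medium with 20% fetal bovine serum and at d4 after differentiation in medium with 2% horse serum, giving 3 libraries in each of the 4 groups WT d0, mutant d0, WT d4 and mutant d4. The mutant cells were 1 edited clone, so the allele and the clone cannot be told apart. The methods name fewer biological replicates per group than the 3 libraries, and nothing says which libraries came from separate cultures. The p-values therefore measure only the spread between these libraries, which may be technical.

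The extracellular matrix of muscle has a basement membrane, a sheet of laminin and collagen IV networks joined by nidogens and perlecan, and an interstitial matrix of fibrillar collagen and fibronectin. Small leucine-rich proteoglycans bind collagen fibrils and set their spacing and thickness, and several of them also bind transforming growth factor beta. Fibrillins, microfibril-associated proteins, fibulins and elastin build elastic fibres, and lysyl oxidases crosslink both elastin and collagen. Matricellular proteins such as thrombospondins, tenascins and osteopontin act on cell adhesion and signalling more than on tissue strength.

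Total reads per library ran from 16098407 to 21412560, and the lowest total of a group was 20823648 in WT d0, 17695434 in mutant d0, 16165803 in WT d4 and 16098407 in mutant d4. FPKM here are fragments scaled to gene length and to a divisor per library that was near its depth. The edited gene itself, Pgam2, had 3.15, 2.71 and 3.15 FPKM in WT d0 and 4.69, 6.76 and 3.97 FPKM in mutant d0. At d4 it had 122, 129 and 132 FPKM in WT and 10.6, 10.3 and 10.9 FPKM in mutant cells. The allele is a substitution, so this level does not check the genotype labels. The myoblast determination factor Myod1 was read in all 12 libraries, with mean FPKM of 38.3 in WT d0 and 32.1 in mutant d0.

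The 50 genes took a smaller share of all reads in mutant cells. Their share was 1.79% of reads in WT d0 (range 1.75 to 1.84%) and 0.958% in mutant d0 (range 0.955 to 0.963%), and the groups did not overlap. At d4 it was 2.02% in WT (range 1.97 to 2.08%) and 1.62% in mutant cells (range 1.59 to 1.64%), again without overlap. Much of this d4 gap lay in the fibronectin gene Fn1, with 388022 reads over WT d4 and 170293 over mutant d4. The other genes went both ways at d4. Per transcript length the leading gene differed between days and not between genotypes. The secreted glycoprotein osteopontin, encoded by Spp1, led in WT d0 with 34.0% of the summed FPKM of the 50 genes, followed by the collagen-binding glycoprotein Sparc with 14.5% and fibronectin, encoded by Fn1, with 12.2%. In mutant d0 the same genes led in the same order, with Spp1 at 21.9%, and in WT d4 and mutant d4 Sparc came first with 22.6% and 25.3% of the summed FPKM. From bulk RNA, fewer cells expressing a gene and less of its RNA per cell cannot be told apart.

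A gene was called lower or higher where the Benjamini-Hochberg adjusted p was below 0.05 and the log2 fold change was beyond 1 in size. In mutant against WT at d0, tested by edgeR's quasi-likelihood test on the reads, 43 of the 50 genes had enough signal to be tested, 21 were called lower and 1 was called higher. Over all 13920 genes tested 9.21% were called lower and 3.03% higher, and the median log2 fold change was -0.91 for the 43 genes against -0.02 for all genes. By adjusted p alone 32 of the 43 were lower and 3 higher, against 23.9% and 20.4% of all genes. The filter asked for about 10 reads in at least 3 libraries, and 9 of the 43 passed it only through WT (Aspn, Prelp, Sparcl1, Postn, Mfap2, Mfap5, Lama1, Lama4 and Efemp1). For these 9 the filter itself leaned towards a lower value in mutant cells, so their calls cannot serve as support. Among the 34 that passed in both groups 12 were called lower and 1 higher, where 5.96% and 2.07% of the 12405 genes that passed in both groups were called. In 34 of the 43 genes every mutant d0 library was below every WT d0 library, against 26.2% of all genes tested, and in 4 every mutant library was above, against 26.1%.

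At d4 the difference was smaller and went both ways. The main test there was limma on log2(FPKM + 1), a scale that understates changes of weakly expressed genes, because the deposited counts of the WT d4 libraries held the counts of the mutant d4 libraries. Of 43 genes tested 14 were called lower in mutant d4 and 3 higher, against 5.98% and 1.73% of all 13252 genes, and the median log2 fold change was -0.17 against 0.00 for all genes. By adjusted p alone 22 were lower and 16 higher, against 28.7% and 26.3% of all genes. The libraries did not overlap in 22 that were lower and 16 that were higher, against 32.7% and 30.7%. Of the 38 that passed the filter in both groups 10 were called lower and 3 higher, against 4.42% and 1.51%, while Sparcl1, Mfap5, Lama4 and Cilp passed only through WT and Cilp2 only through mutant cells. With reads worked back from FPKM, edgeR tested 48 of the genes and called 18 lower and 5 higher, against 10.8% and 5.09% of all genes. No library is shared between the d0 and d4 comparisons. By limma at d4, 9 of the 21 genes lower at d0 were lower again (Bgn, Prelp, Sparcl1, Spp1, Postn, Fbn1, Fbln5, Mfap5 and Lama4), 10 were not called (Dcn, Ogn, Aspn, Vcan, Thbs1, Fbln7, Nid2, Loxl1, Loxl3 and Efemp1), and Mfap2 and Lama1 were not tested. Of the 9, Prelp, Sparcl1, Postn, Mfap5 and Lama4 passed the d0 filter only through WT, so their recurrence cannot serve as support. How often a lower call at d0 recurred at d4 over all genes was not counted. Fn1, Tnc and Fbln1 were called lower at d4 only, Thbs2 and Lamb2 higher at d4 only, and Loxl2 was called higher at both days. Lum and Cilp, not tested at d0, were called lower at d4 too.

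**Figure D1:**
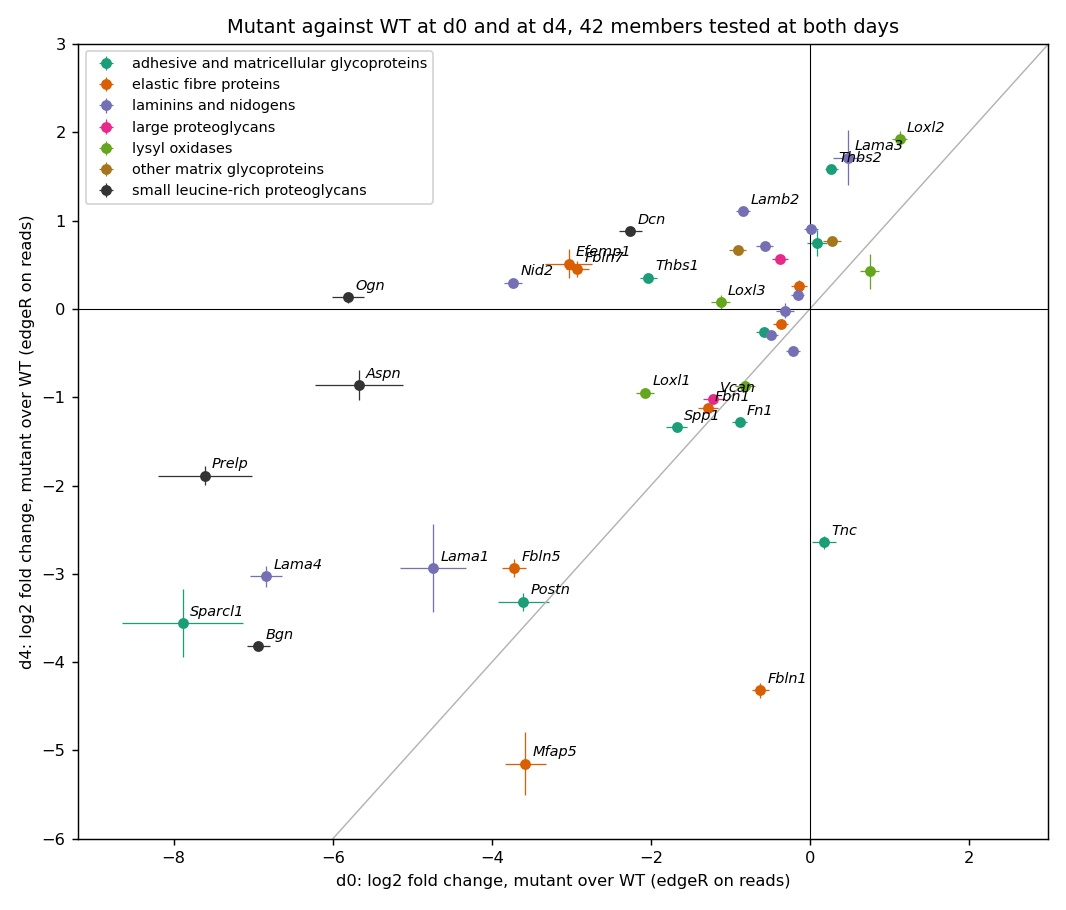
Log2 fold changes of mutant against WT at d0 (x axis) and d4 (y axis) for the 42 genes that edgeR tested at both days on reads, 1 point a gene, bars showing standard errors and the grey line equality. At d0 34 of the 42 points lie below 0, at d4 22 do, and 35 lie above the line, that is, higher at d4 than at d0. The same shares over all genes were not counted.

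Of the 7 small leucine-rich proteoglycan genes 5 were tested at d0 and called lower in mutant cells. Aspn and Prelp passed the filter only through WT, so the filter itself leaned towards their lower calls. Of the 3 that passed in both groups (Bgn, Dcn and Ogn) all were called lower, against 5.96% of all such genes. Biglycan, encoded by Bgn, had 194, 178 and 185 FPKM in the WT d0 libraries and 1.29, 1.58 and 1.76 FPKM in the mutant d0 libraries, with every mutant library far below every WT library (log2 fold change -6.93, standard error 0.14, adjusted p = 7.21e-11, edgeR). At d4 its level was 245, 257 and 229 FPKM in WT and 16.1, 18.1 and 17.6 FPKM in mutant cells, so the groups stayed far apart (log2 fold change -3.74, standard error 0.07, adjusted p = 4.06e-07, limma; -3.82 by edgeR on reads). Osteoglycin, encoded by Ogn, followed another course. It had 58.8, 88.4 and 85.0 FPKM in WT d0 and 1.73, 1.21 and 1.28 FPKM in mutant d0 (log2 fold change -5.81, standard error 0.21, adjusted p = 2.36e-09, edgeR). At d4 the levels overlapped, with 72.0, 72.1 and 65.0 FPKM in WT and 71.0, 71.5 and 86.1 FPKM in mutant cells (log2 fold change 0.12, standard error 0.09, adjusted p = 0.294, limma).

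Prelp, which in other tissues links basement membranes to the collagen beneath them, was nearly unread in mutant d0. Its FPKM were 2.32, 1.42 and 3.15 in WT d0 and 0.0307, 0 and 0 in mutant d0, that is 543 reads summed over WT and 2 summed over mutant cells, a ratio of 236 (95% exact interval 65.1 to 1957, counting error only). In d4 cells it had 9.75, 8.66 and 8.74 FPKM in WT and 2.46, 2.66 and 2.16 FPKM in mutant cells and was still lower (log2 fold change -1.55, standard error 0.07, adjusted p = 1.53e-05, limma; -1.89 by edgeR on reads). Asporin, encoded by Aspn, a collagen-binding relative of decorin, had 1.41, 1.96 and 1.71 FPKM in WT d0 and 0.0944, 0 and 0 FPKM in mutant d0 (log2 fold change -5.67, standard error 0.55, adjusted p = 8.7e-06, edgeR). All 3 mutant libraries lay below the WT libraries at d0 and again at d4, where the levels were 4.31, 4.21 and 3.31 FPKM against 1.72, 2.35 and 2.44 FPKM and the difference was not called (log2 fold change -0.64, standard error 0.12, adjusted p = 0.00528, limma).

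Decorin, encoded by Dcn, showed an order that turned between the days. In d0 cells it had 4.00, 3.72 and 4.23 FPKM in WT and 1.01, 0.721 and 0.809 FPKM in mutant cells (log2 fold change -2.26, standard error 0.14, adjusted p = 2.67e-07, edgeR). In d4 cells it had 93.4, 91.6 and 87.6 FPKM in WT and 164, 166 and 171 FPKM in mutant cells. All mutant libraries were thus below WT at d0 and above WT at d4, although the d4 difference stayed inside the fold threshold (log2 fold change 0.87, standard error 0.05, adjusted p = 2.46e-05, limma). Lumican, encoded by Lum, was too low to test at d0, with 15 reads summed over WT and 0 summed over mutant cells, at least 4.35-fold higher in WT when the mutant group is put at 3 reads. At d4 it had 7.55, 8.88 and 8.09 FPKM in WT and 0.828, 0.867 and 0.939 FPKM in mutant cells, with no overlap (log2 fold change -2.29, standard error 0.07, adjusted p = 2.02e-06, limma; -3.22 by edgeR on reads). Fibromodulin, encoded by Fmod, had 54 reads over WT d0 and 0 over mutant d0, at least 15.7-fold higher in WT, and 89 against 1 at d4, a ratio of 89.9 (95% exact interval 15.7 to 3591). Lumican and fibromodulin compete for related sites on collagen fibrils.

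**Figure D2:**
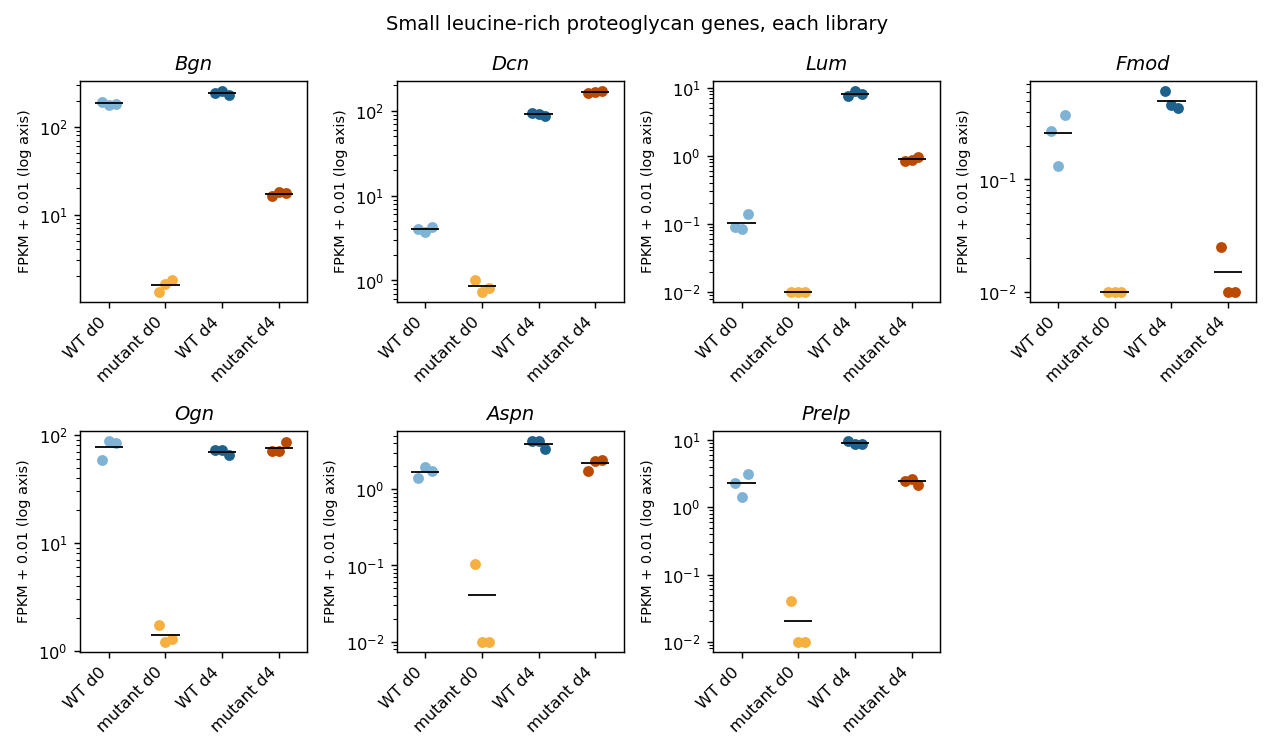
FPKM + 0.01 on a log axis for the 7 small leucine-rich proteoglycan genes in WT d0, mutant d0, WT d4 and mutant d4, with points for the 3 libraries of each group and a line at their mean. The mutant d0 points lie below the WT d0 points for every gene, the Ogn points of both genotypes overlap at d4, and the mutant d4 points of Dcn lie above those of WT.

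Several of these genes lie in clusters of the mouse genome, and the coordinates in the files (mm10) show 3 of them. Dcn (chr10:97479609-97518143, plus strand) and Lum (chr10:97565128-97572703) are neighbours 46984 bp apart. Prelp (chr1:133910304-133921414, minus strand) lies 115839 bp from Fmod (chr1:134037254-134048277, plus strand). On chromosome 13 Ecm2, Aspn, Omd and Ogn follow each other with gaps of 11653, 14896 and 15223 bp. The 2 neighbours that are no members passed the filter only through WT d0 and were called lower there, Omd at a log2 fold change of -4.88 and Ecm2 at -2.37 (edgeR), with mean levels of 1.49 and 0.333 FPKM in WT d0. Aspn shares exon sequence with Cenpp on the opposite strand, and no source used here gives the strand setting of the counting, so their reads cannot be fully told apart. Cenpp had a log2 fold change of -0.21 at d0. The 250 bases before the RefSeq start site (GRCm38.p6) are shown for the 4 genes called lower at d0 with the largest log2 changes among the 31 members with an entry, and for Cilp, the gene with the largest difference at d4, which was added after its values were seen. Capitals mark the E-box CAGCTG, which reads the same on both strands and is the form bound by myogenic factors, the TEAD motif GGAATG searched on both strands, and TATAA searched in the direction of transcription only. The windows are at chr1:133921402-133921651 (minus strand) for Prelp, chrX:73483351-73483600 (plus strand) for Bgn, chr13:49607765-49608014 (plus strand) for Ogn, chr13:49544193-49544442 (plus strand) for Aspn, chr9:65264930-65265179 (plus strand) for Cilp.
Prelp: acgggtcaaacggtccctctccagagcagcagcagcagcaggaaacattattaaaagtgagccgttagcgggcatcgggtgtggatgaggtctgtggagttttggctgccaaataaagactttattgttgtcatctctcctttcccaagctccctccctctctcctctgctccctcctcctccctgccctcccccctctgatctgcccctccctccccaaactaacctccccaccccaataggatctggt
Bgn: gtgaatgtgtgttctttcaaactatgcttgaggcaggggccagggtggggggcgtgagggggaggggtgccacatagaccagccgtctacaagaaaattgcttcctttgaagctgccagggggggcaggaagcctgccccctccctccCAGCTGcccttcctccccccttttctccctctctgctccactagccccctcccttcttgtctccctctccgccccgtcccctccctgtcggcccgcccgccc
Ogn: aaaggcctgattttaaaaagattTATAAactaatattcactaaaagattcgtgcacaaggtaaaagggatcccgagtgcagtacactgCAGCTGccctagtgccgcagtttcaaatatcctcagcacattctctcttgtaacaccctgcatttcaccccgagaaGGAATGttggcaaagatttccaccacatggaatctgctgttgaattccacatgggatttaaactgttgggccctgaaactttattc
Aspn: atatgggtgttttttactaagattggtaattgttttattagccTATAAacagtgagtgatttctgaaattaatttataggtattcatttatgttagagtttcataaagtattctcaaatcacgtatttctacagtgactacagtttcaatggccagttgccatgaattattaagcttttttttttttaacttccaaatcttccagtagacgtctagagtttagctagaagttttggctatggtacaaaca
Cilp: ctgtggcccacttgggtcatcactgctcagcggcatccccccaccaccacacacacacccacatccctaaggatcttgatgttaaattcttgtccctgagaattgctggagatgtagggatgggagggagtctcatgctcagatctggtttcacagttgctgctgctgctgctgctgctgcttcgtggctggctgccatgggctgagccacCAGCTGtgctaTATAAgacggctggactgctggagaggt
The Bgn window holds CAGCTG at position -102 from the start site. The Ogn window holds CAGCTG at -162, GGAATG at -86 and TATAA at -227. The Aspn window holds TATAA at -207, the Cilp window holds CAGCTG at -39 and TATAA at -28, and none of these letters is in the Prelp window. CAGCTG is in 13.0% of the windows of this length before all 32851 start sites and in 5 of the 31 members, GGAATG in 12.6% and 4 of 31, and TATAA in 16.0% and 9 of 31. The median GC content was 54.6% over the windows of 12 members called lower at d0, 58.8% over those of the 19 others and 52.4% over all. These matches describe letters in a window and no more.

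The large proteoglycans were closer between genotypes. Versican, encoded by Vcan, a hyaluronan-binding proteoglycan of loose matrix, had 23.1, 28.8 and 24.4 FPKM in WT d0 and 12.8, 9.87 and 10.7 FPKM in mutant d0 and was called lower (log2 fold change -1.22, standard error 0.12, adjusted p = 1.34e-05, edgeR). At d4 its levels were 28.7, 30.8 and 26.0 FPKM against 13.1, 13.2 and 15.6 FPKM, without overlap, and the call depended on the test (log2 fold change -0.98 by limma, below the threshold in size, and -1.02 by edgeR on reads). Perlecan, encoded by Hspg2, the heparan sulfate proteoglycan of basement membranes, was not called at either day. Its FPKM were 96.5, 81.4 and 84.7 in WT d0 and 63.6, 74.4 and 67.1 in mutant d0, and 149.5, 152 and 145 in WT d4 and 224, 207 and 226 in mutant d4, so mutant libraries lay below WT at d0 and above WT at d4.

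Among the 10 adhesive and matricellular glycoproteins 4 of 9 tested were called lower at d0, of which Sparcl1 and Postn passed the filter only through WT. Of the 7 that passed in both groups 2 were called lower at d0 (Spp1 and Thbs1) and none higher, against 5.96% and 2.07% of all such genes. At d4 limma called 4 of the 8 that passed in both groups lower and 1 higher, against 4.42% and 1.51%. Fn1, which encodes fibronectin, the main adhesive protein of interstitial matrix, had 417, 392 and 452 FPKM in WT d0 and 223, 236 and 236 FPKM in mutant d0. The groups were apart but the change stayed inside the fold threshold (log2 fold change -0.88, standard error 0.10, adjusted p = 2.53e-05, edgeR). At d4 the levels were 605, 635 and 586 FPKM in WT and 257, 239 and 254 FPKM in mutant cells, past the threshold (log2 fold change -1.28, standard error 0.05, adjusted p = 9.4e-06, limma). Spp1, which encodes osteopontin, an integrin-binding phosphoglycoprotein, had the highest FPKM of the 50 genes in WT d0, at 1054, 1388 and 1061, against 407, 341 and 367 in mutant d0 (log2 fold change -1.68, standard error 0.13, adjusted p = 1.53e-06, edgeR). At d4 it had 491, 501 and 484 FPKM in WT and 195, 188 and 198 FPKM in mutant cells (log2 fold change -1.34, standard error 0.04, adjusted p = 3.54e-06, limma), so mutant libraries were the lower ones at both days. Spp1 overlaps the annotated gene Gm42793 on the same strand, which had a log2 fold change of -1.66 at d0, and reads of the 2 cannot be told apart. Sparc, whose product binds collagen, was not called, with log2 fold changes of -0.58 at d0 by edgeR and -0.26 at d4 by limma.

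Thrombospondins, trimers or pentamers that bind matrix and cell receptors, went different ways. Thbs1, whose product activates latent transforming growth factor beta, had 97.5, 94.9 and 103 FPKM in WT d0 and 26.5, 25.4 and 21.5 FPKM in mutant d0 (log2 fold change -2.03, standard error 0.10, adjusted p = 4.4e-08, edgeR). Its d4 levels were 110.3, 111 and 100.4 FPKM in WT and 136, 139 and 134 FPKM in mutant cells and was not called (log2 fold change 0.35, standard error 0.06, adjusted p = 0.00248, limma). Thbs2, whose product inhibits vessel growth and shapes collagen fibrils, was not called at d0 with 34.3, 36.3 and 37.0 FPKM in WT and 44.5, 41.8 and 45.9 FPKM in mutant cells (log2 fold change 0.27, standard error 0.09, adjusted p = 0.0256, edgeR). At d4 it was higher in mutant cells, at 40.2, 39.5 and 40.9 FPKM against 12.7, 13.9 and 13.8 FPKM in WT (log2 fold change 1.51, standard error 0.05, adjusted p = 3.56e-06, limma), and the groups did not overlap. Thbs3 was not called at either day, and Comp, the cartilage thrombospondin, had 11 reads over WT d0 and 0 over mutant d0, at least 3.19-fold higher in WT, and 3 or fewer over each d4 group.

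Tenascin-C, encoded by Tnc, a modulator of adhesion in developing and regenerating muscle, overlapped between genotypes at d0 and was apart at d4. Its FPKM at d0 were 31.6, 30.8 and 20.6 in WT and 28.8, 36.4 and 30.2 in mutant cells (log2 fold change 0.18, standard error 0.15, adjusted p = 0.365, edgeR). At d4 they were 12.9, 13.6 and 12.3 in WT and 2.21, 2.03 and 1.95 in mutant cells (log2 fold change -2.19, standard error 0.06, adjusted p = 1.47e-06, limma). Periostin, encoded by Postn, which binds fibronectin and tenascin-C, was low at d0, with 0.431, 0.550 and 0.557 FPKM in WT and 0.0255, 0.0363 and 0.0662 FPKM in mutant cells (log2 fold change -3.60, standard error 0.32, adjusted p = 4.03e-06, edgeR). Its levels at d4 were 9.30, 9.53 and 7.38 FPKM against 0.824, 0.806 and 1.02 FPKM (log2 fold change -2.36, standard error 0.10, adjusted p = 9.75e-06, limma; -3.31 by edgeR on reads). Mutant libraries were the lower ones at both days. Sparcl1, a relative of Sparc, had 96 reads over WT d0 and 0 over mutant d0, at least 27.9-fold higher in WT, and 212 against 19 at d4, an 11.3-fold difference.

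In the elastic-fibre family 6 of 9 genes tested were called lower at d0, of which Mfap2, Mfap5 and Efemp1 passed the filter only through WT. Of the 6 that passed in both groups 3 were called lower at d0 (Fbn1, Fbln5 and Fbln7), against 5.96% of all such genes, and of 7 at d4 3 were called lower by limma, against 4.42%. Fibrillin-1, encoded by Fbn1, the core protein of microfibrils, had 27.4, 24.8 and 35.4 FPKM in WT d0 and 11.9, 11.6 and 13.1 FPKM in mutant d0 (log2 fold change -1.28, standard error 0.13, adjusted p = 1.08e-05, edgeR). At d4 the levels were 59.8, 59.9 and 56.4 FPKM and 27.7, 25.5 and 27.1 FPKM, again without overlap (log2 fold change -1.10, standard error 0.05, adjusted p = 1.53e-05, limma). Fibulin-5, encoded by Fbln5, which helps assemble elastic fibres, was lower by more, with 7.09, 6.09 and 8.17 FPKM against 0.627, 0.479 and 0.541 FPKM at d0 (log2 fold change -3.72, standard error 0.15, adjusted p = 6.82e-09, edgeR). It had 7.14, 7.17 and 6.90 FPKM against 0.923, 0.888 and 0.963 FPKM at d4 (log2 fold change -2.07, standard error 0.04, adjusted p = 6.01e-07, limma; -2.93 by edgeR on reads). Fibulin-1, encoded by Fbln1, a fibronectin and laminin ligand, was not called at d0, with 30.7, 26.3 and 25.8 FPKM in WT and 15.9, 20.3 and 18.3 FPKM in mutant cells (log2 fold change -0.62, standard error 0.11, adjusted p = 0.00081, edgeR). At d4 it stood at 21.1, 22.9 and 23.9 FPKM in WT and 1.10, 1.18 and 1.09 FPKM in mutant cells (log2 fold change -3.47, standard error 0.06, adjusted p = 3.87e-07, limma; -4.32 by edgeR on reads). The Fbln1 libraries did not overlap at either day, and the gap was wider at d4.

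Fbln7 and Efemp1, both fibulin-family genes, were lower at d0 only. Fbln7 had 7.86, 7.30 and 8.42 FPKM in WT d0 and 0.912, 1.24 and 0.999 FPKM in mutant d0 (log2 fold change -2.92, standard error 0.15, adjusted p = 3.6e-08, edgeR). It had 6.21, 5.84 and 6.76 FPKM against 8.33, 8.32 and 9.01 FPKM at d4 (log2 fold change 0.39, standard error 0.06, adjusted p = 0.0027, limma). Efemp1 had 1.77, 2.08 and 2.29 FPKM against 0.300, 0.310 and 0.141 FPKM at d0 (log2 fold change -3.03, standard error 0.29, adjusted p = 9.12e-06, edgeR). At d4 it had 3.10, 3.63 and 2.58 FPKM against 4.30, 4.03 and 5.05 FPKM. Mutant libraries were then above WT but the difference was not called (log2 fold change 0.41, standard error 0.11, adjusted p = 0.0223, limma). The microfibril-associated genes were weakly expressed. Mfap5, a fibrillin-binding glycoprotein gene, had 1.21, 1.28 and 1.35 FPKM in WT d0 and 0.0928, 0.132 and 0.0962 FPKM in mutant d0 (log2 fold change -3.58, standard error 0.26, adjusted p = 8.95e-07, edgeR). It was lower at d4 as well (log2 fold change -1.55, standard error 0.10, adjusted p = 5.27e-05, limma), where reads gave a wider gap, 410 against 12 or 34.5-fold, after 301 against 21 or 12.5-fold at d0 (log2 fold change -5.15 at d4 by edgeR on reads). Mfap2 had 58 reads over WT d0 and 1 over mutant d0, a ratio of 50.5 (95% exact interval 8.71 to 2029). Mfap4 had 68 reads over WT d4 and 4 over mutant d4, a 17.2-fold difference, and at d0 3 or fewer over each genotype. Elastin itself, encoded by Eln, was close to unread, with 6, 1, 40 and 48 reads over WT d0, mutant d0, WT d4 and mutant d4. Fbln2 and Efemp2 were not called at either day.

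The 11 laminin and nidogen genes, all tested at d0, held 3 called lower and none called higher, but Lama1 and Lama4 passed the filter only through WT. Of the 9 that passed in both groups 1 was called lower, Nid2, and a count of 1 is near the 5.96% of all such genes. Laminins are trimers of an alpha, a beta and a gamma chain. The chains with the highest FPKM in WT d0, Lama5, Lamb1, Lamb2 and Lamc1, were not called at d0, and for Lama5 the levels overlapped, with 43.8, 39.9 and 42.9 FPKM in WT d0 and 41.7, 45.5 and 42.7 FPKM in mutant d0 (log2 fold change 0.01, standard error 0.09, adjusted p = 0.92, edgeR). The called chains were alpha chains of low level. Lama4, a chain found in vessel and early muscle basement membranes, had 2.06, 2.06 and 2.23 FPKM in WT d0 and 0.0138, 0.0174 and 0.0239 FPKM in mutant d0 (log2 fold change -6.84, standard error 0.20, adjusted p = 6.05e-10, edgeR), which were 1671 reads against 12. At d4 it had 3.70, 3.32 and 2.99 FPKM in WT and 0.422, 0.386 and 0.416 FPKM in mutant cells (log2 fold change -1.62, standard error 0.07, adjusted p = 8.92e-06, limma), a 7.76-fold difference in reads. Lama1, the chain of the earliest embryonic basement membranes, had 0.477, 0.452 and 0.913 FPKM in WT d0 and 0.0172, 0.0217 and 0.0297 FPKM in mutant d0 (log2 fold change -4.74, standard error 0.42, adjusted p = 4.2e-06, edgeR) and was tested at d4 on reads only (log2 fold change -2.94, adjusted p = 1.03e-05, edgeR).

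Nidogens bridge laminin and collagen IV, and only the second of them differed past the threshold at d0. Nid2 had 53.2, 46.2 and 56.8 FPKM in WT d0 and 4.29, 3.80 and 3.85 FPKM in mutant d0 (log2 fold change -3.73, standard error 0.11, adjusted p = 6.05e-10, edgeR). At d4 the mutant libraries were above WT, at 37.9, 36.6 and 38.0 FPKM against 30.8, 31.6 and 29.3 FPKM, and the difference was not called (log2 fold change 0.29, standard error 0.05, adjusted p = 0.00336, limma). Nid2 shares an exon overlap with Rtraf on the opposite strand, which had a log2 fold change of -0.09 at d0. Nid1 was closer between genotypes, with 102, 108 and 96.3 FPKM in WT d0 and 75.0, 72.4 and 74.5 FPKM in mutant d0 (log2 fold change -0.49, edgeR). At d4 limma called 1 laminin gene lower, Lama4, which passed the filter only through WT, and 1 higher. The one called higher was Lamb2, a beta chain of mature muscle and of the neuromuscular junction, with 28.6, 29.2 and 30.1 FPKM in WT d4 and 63.4, 62.3 and 62.8 FPKM in mutant d4 (log2 fold change 1.08, standard error 0.04, adjusted p = 7.42e-06, limma). Its d0 levels were 29.6, 27.5 and 32.2 FPKM in WT d0 and 16.6, 17.3 and 16.9 FPKM in mutant d0. Mutant libraries of Lamb2 were thus below WT at d0 and above it at d4. Lama2, the main alpha chain of the adult muscle basement membrane, was not called at either day. Its FPKM were 4.38, 5.33 and 4.92 in WT d0 and 3.47, 3.05 and 3.54 in mutant d0 (log2 fold change -0.57, standard error 0.11, adjusted p = 0.0013, edgeR). They were 16.1, 15.5 and 15.6 in WT d4 and 26.0, 24.6 and 26.5 in mutant d4, so mutant libraries lay below WT at d0 and above WT at d4. Lama5, at 35.0, 33.1 and 33.1 FPKM against 65.4, 61.8 and 62.3 FPKM in d4 cells, was also apart between genotypes but inside the fold threshold (log2 fold change 0.88, standard error 0.05, adjusted p = 2.59e-05, limma). Lama3 was called higher at d4 on reads only (log2 fold change 1.71, edgeR), and Lamb3 was not called at either day.

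**Figure D3:**
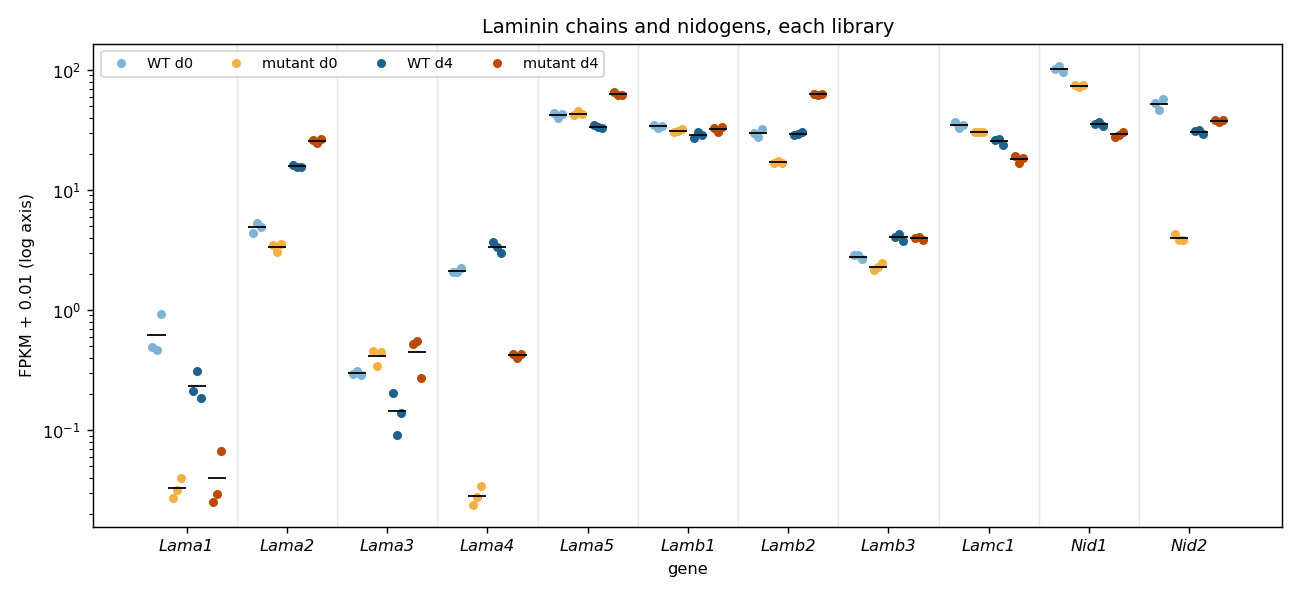
FPKM of the 11 laminin and nidogen genes in WT d0, mutant d0, WT d4 and mutant d4, with points for the 3 libraries of each group and a line at their mean, drawn as FPKM + 0.01 on a log axis. Lama1, Lama4 and Nid2 stand apart between genotypes at d0, Nid2 is close at d4, and Lamb2 lies above WT in all 3 mutant d4 libraries.

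Among the other glycoproteins Cilp, a cartilage intermediate layer protein also made by fibroblasts, showed the largest d4 difference among the 48 genes that edgeR tested on reads. It was nearly unread at d0, with 2 reads in all WT libraries and 0 in all mutant libraries. At d4 it had 37.5, 39.6 and 36.0 FPKM in WT and 0.0465, 0.0217 and 0.0427 FPKM in mutant cells (log2 fold change -5.22, standard error 0.05, adjusted p = 8.69e-08, limma), that is 8749 reads against 9, a 982-fold difference. Its relative Cilp2 was not called by limma and was higher in mutant d4 on reads (log2 fold change 1.12, edgeR). Ecm1, a secreted glycoprotein that binds perlecan and fibulins, and Matn2, a filament-forming matrilin, were not called at either day. Ecm1 had 108, 119 and 121 FPKM in WT d4 and 194, 203 and 195 FPKM in mutant d4, and Matn2 had 21.6, 22.3 and 20.8 FPKM and 33.9, 33.2 and 35.2 FPKM, so mutant libraries were above WT for both at d4. At d0 the Ecm1 libraries overlapped. Matn2 was then below WT in every mutant library, at 19.4, 21.7 and 24.9 FPKM in WT d0 and 11.7, 11.5 and 12.7 FPKM in mutant d0 (log2 fold change -0.91, standard error 0.11, adjusted p = 4.73e-05, edgeR).

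The lysyl oxidases split. Loxl2, which also oxidises collagen IV in basement membranes, was the single gene called higher at d0, with 7.59, 7.69 and 6.50 FPKM in WT d0 and 15.6, 16.5 and 16.3 FPKM in mutant d0 (log2 fold change 1.13, standard error 0.10, adjusted p = 3.19e-06, edgeR). It was higher at d4 too, with 3.60, 4.92 and 3.64 FPKM in WT and 15.5, 16.2 and 14.5 FPKM in mutant cells (log2 fold change 1.71, standard error 0.11, adjusted p = 4.98e-05, limma). Loxl1, the elastic-fibre crosslinking enzyme, was lower at d0 with 58.3, 47.2 and 46.0 FPKM in WT and 11.4, 12.8 and 12.5 FPKM in mutant cells (log2 fold change -2.07, standard error 0.11, adjusted p = 5.03e-08, edgeR). At d4 its levels were 84.7, 90.0 and 91.2 FPKM and 47.1, 46.3 and 43.9 FPKM, still apart but not called (log2 fold change -0.94, standard error 0.05, adjusted p = 2.87e-05, limma). Loxl3 was lower at d0 (log2 fold change -1.12, standard error 0.12, adjusted p = 2.42e-05, edgeR) and overlapped at d4 (log2 fold change 0.06, standard error 0.08, adjusted p = 0.517, limma), and it overlaps Htra2 on the opposite strand, which had a log2 fold change of 0.25 at d0. Lox, the founding enzyme of the family, was lower in every mutant library at both days without passing the threshold, at 103, 129.9 and 111 FPKM against 76.5, 60.3 and 62.8 FPKM at d0 (log2 fold change -0.81, standard error 0.12, adjusted p = 0.000301, edgeR). Loxl4 was not called at either day. In all, 18 of the 50 genes share exon sequence with a gene on the opposite strand.

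**Figure D4:**
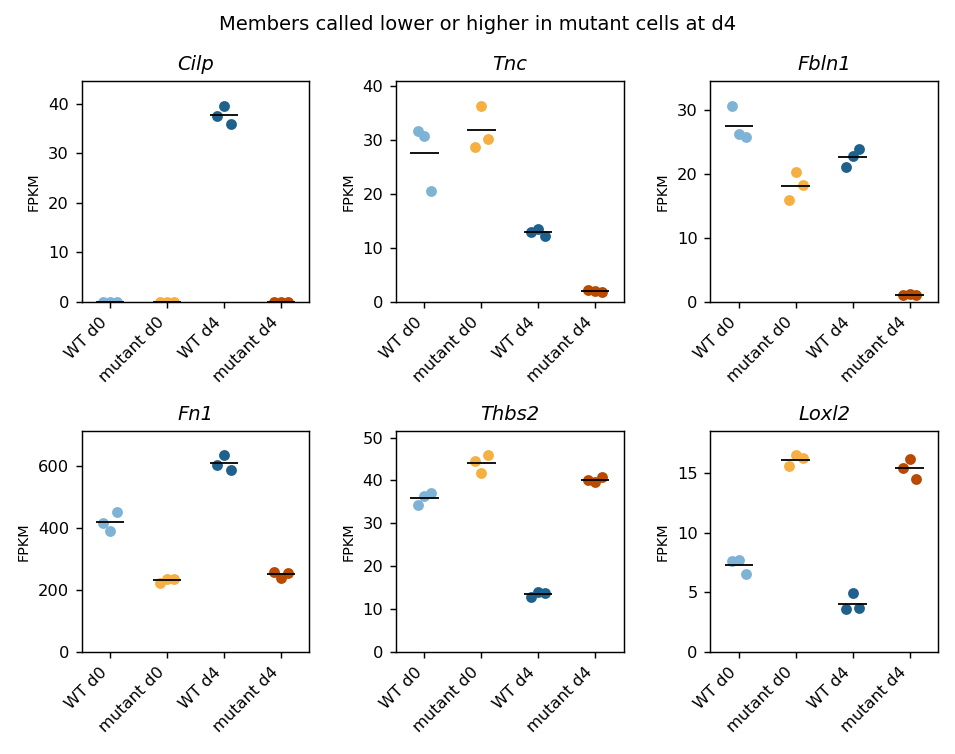
FPKM on linear axes from 0 for 6 genes that were called at d4, Cilp, Tnc, Fbln1, Fn1, Thbs2 and Loxl2, in WT d0, mutant d0, WT d4 and mutant d4, with points for the 3 libraries of each group and a line at their mean. Mutant d4 lies below WT d4 for the first 4 and above it for Thbs2 and Loxl2.

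The change from d0 to d4 was then followed within each genotype on reads scaled to library size, given as CPM and scaled over all 12 libraries, since FPKM had been scaled for each day separately. In WT 48 genes were tested by edgeR, and 12 were called higher at d4 and 9 lower. Of all genes 12.6% and 13.0% were called, and the members' median log2 fold change was 0.12 against -0.03 for all genes. Of the 42 that passed the filter at both days 7 were called higher and 9 lower, against 9.25% and 11.0%. By adjusted p alone 24 of the 48 were higher and 18 lower, against 29.9% and 32.6% of all genes. In mutant cells 41 were tested, and 19 were called higher and 5 lower. Of all genes 17.3% and 17.1% were called, and the members' median was 0.86 against -0.01. Of the 34 that passed at both days 12 were called higher and 5 lower, against 13.5% and 15.0%. By adjusted p alone 26 of the 41 were higher and 9 lower, against 36.8% and 38.4% of all genes. In WT the genes called higher among those that passed at both days were Dcn, Postn, Prelp, Lama2, Sparcl1, Aspn and Fbn1. Cilp, Lum, Mfap4, Cilp2 and Fmod were also called higher in WT but passed the filter only at d4. Those called lower in WT were Loxl4, Nid1, Efemp2, Loxl3, Lama1, Thbs2, Spp1, Tnc and Lama3. In mutant cells Bgn, Dcn, Ogn, Hspg2, Thbs1, Fbn1, Fbln7, Lama2, Lamb2, Nid2, Matn2 and Loxl1 were called higher among the genes read at both days, as were Lum, Aspn, Prelp, Postn, Lama4, Cilp2 and Efemp1, which passed the filter only at d4. The 5 called lower in mutant cells were Fbln1, Tnc, Loxl4, Nid1 and Efemp2. Leaving out single libraries ended the calls of 5 of the WT genes. Without WT d0 replicate 2 Fmod went from 1.04 to 0.73 and Fbn1 from 1.07 to 0.99. Without WT d0 replicate 1 Tnc went from -1.03 to -0.90, and without WT d0 replicate 3 Lama1 went from -1.38 to -0.98. Without WT d4 replicate 2 Lama3 went from -1.01 to -0.74. Fmod also lost its call without WT d0 replicate 1 (1.09) or WT d4 replicate 1 (0.87), Tnc without WT d0 replicate 2 (-0.92) or WT d4 replicate 3 (-0.996), and Lama3 without WT d0 replicate 2 (-0.95) or WT d4 replicate 3 (-0.99).

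The difference between these changes was tested as the interaction of genotype and day by edgeR. It equals the genotype difference at d4 minus that at d0 and uses the same d0 libraries. Genes low in mutant d0 therefore lean towards a more positive value, and the interaction is no separate result from the d0 comparison. The signed log2 change from d0 to d4 was more positive in mutant cells for 19 of 49 genes tested. It was more negative for 3, against 8.68% and 7.95% of all genes. The median interaction was 0.86 against 0.01. A more positive value can be a smaller fall, as for Thbs2, at -1.35 in WT and -0.07 in mutant cells. By adjusted p alone 28 were more positive and 5 more negative, against 21.9% and 23.3%. The most positive interaction of the 49 was that of Ogn, at 199 ± 41.6 CPM in WT d0 and 181 ± 9.99 CPM in WT d4 (mean ± SD, n = 3), and 3.63 ± 0.766 CPM in mutant d0 and 196 ± 22.0 CPM in mutant d4. It changed by -0.09 on the log2 scale in WT and by 5.82 in mutant cells (interaction 5.89, standard error 0.21, adjusted p = 7.26e-14, edgeR). Nid2 went from 269.6 ± 27.7 to 160.4 ± 6.02 CPM in WT and from 20.7 ± 1.60 to 195 ± 4.10 CPM in mutant cells (interaction 3.99, standard error 0.12, adjusted p = 6.14e-15, edgeR). Neither gene was called between genotypes at d4. Lamb2 was flat in WT at 0.04 and changed by 1.95 in mutant cells (interaction adjusted p = 1.05e-11, edgeR). Decorin changed by 4.58 in WT and 7.68 in mutant cells, and biglycan by 0.46 and 3.55, yet biglycan ended far below WT. The interaction of Cilp had too large a standard error to read, since mutant d0 had 0 reads.

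The 3 genes with a more negative change in mutant cells were Fbln1, Tnc and Mfap5. Fbln1 changed by -0.22 in WT and by -3.95 in mutant cells (interaction -3.74, adjusted p = 3.34e-13, edgeR). Tnc was at 215 ± 47.8 and 102 ± 5.28 CPM in WT d0 and d4, and at 248 ± 30.7 and 16.1 ± 1.01 CPM in mutant d0 and d4 (mean ± SD, n = 3; interaction adjusted p = 2.19e-10, edgeR). Both fell further in mutant cells. Mfap5 (interaction -1.62, adjusted p = 0.0251, edgeR) was not called without mutant d0 replicate 2, at -1.44, or without mutant d4 replicate 1, at -1.14. By family, a more positive change in mutant cells was called for 5 of 7 small leucine-rich proteoglycans and 5 of 11 laminins and nidogens. It was called for 3 of 9 adhesive and 3 of 11 elastic-fibre genes, against 8.68% of all genes. Aspn, Prelp, Sparcl1 and Mfap2 are among these, with 4, 2, 0 and 1 reads summed over mutant d0, as are Lama4 with 12 and Efemp1 with 28. All of these passed the d0 filter only through WT, so their calls cannot serve as support. Calls among genes past the filter in every group were not counted for the interaction. The interactions of Spp1 (0.29, adjusted p = 0.0844, edgeR) and Postn (0.25, adjusted p = 0.585, edgeR) were not called, and both were called lower in mutant cells at both days.

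**Figure D5:**
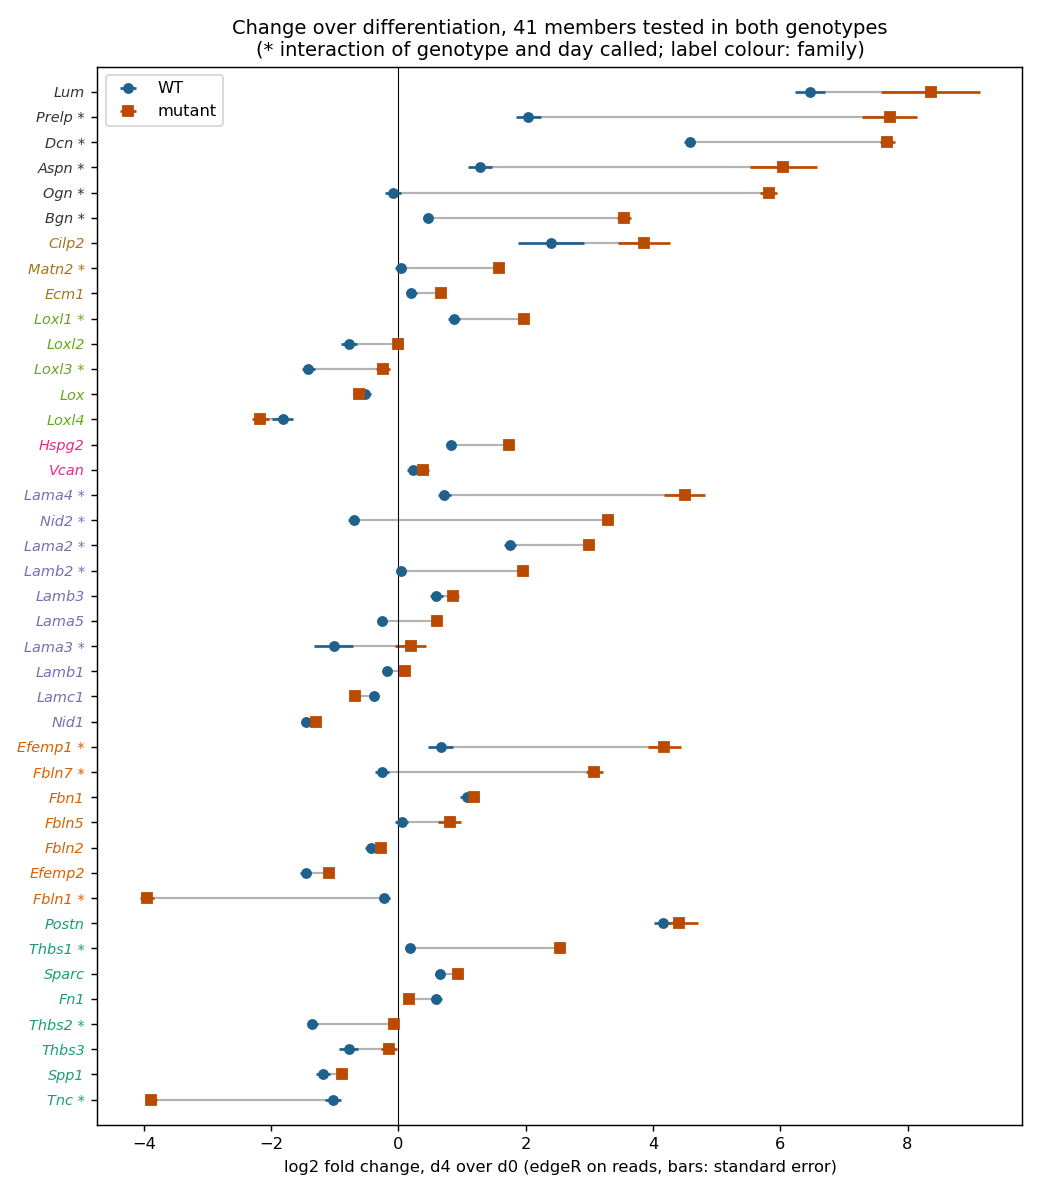
Log2 fold change of d4 against d0 by edgeR for the 41 genes tested in both genotypes, circles for WT and squares for mutant cells, with an asterisk where the interaction of genotype and day was called. The mutant value lies above the WT value in 35 of the 41. The d0 libraries are those of the d0 comparison of genotypes, and the same share over all genes was not counted.

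Receptors and relatives of these genes were read from lists grouped by function. Of 27 receptors for matrix proteins 25 were tested at d0 by edgeR, 7 were called lower in mutant cells and none higher, where 9.21% of all genes were lower and 3.03% higher. Of the 22 that passed the filter in both groups 4 were called lower, against 5.96%. Cd36, a thrombospondin receptor, was listed at 0 in mutant d0 and had a mean of 0.264 FPKM in WT d0. Itga11, a collagen-binding integrin chain, had a log2 fold change of -5.45 with a mean of 0.0278 FPKM in mutant d0. At d4 limma called 3 of 23 lower, with Cd36 at -3.45 and Itga11 at -2.03, and 1 higher, Itga3, a laminin-binding integrin chain, at 1.51, and of the 21 that passed in both groups 1 was lower and 1 higher, against 4.42% and 1.51%. Of 44 genes of the same protein families that were no members 23 were tested at d0, 8 were called lower and 2 higher (edgeR), with Spock2 at -5.52, Smoc2 at -5.45 and Omd at -4.88. Of the 17 of these that passed in both groups 4 were lower and 1 higher. Of the fibrillar collagen genes 6 of 10 were called lower at d0 and 1 higher, Col1a1 standing at -6.50, and of the 8 that passed in both groups 6 were lower. Of the basement membrane collagens none of 5 was called lower and 1 was called higher (edgeR). Of 17 signals and transcription factors known to raise matrix genes 2 were called lower at d0, Tcf4 at -1.76 and Prrx1 at -1.22, and none higher (edgeR), against 9.21% and 3.03% of all genes. All 17 passed the filter in both groups, where 5.96% of genes were called lower and 2.07% higher. A count of 2 is too small to read further.

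Markers of muscle and of other cell types moved between the same groups. Over all genes tested 9.21% were called lower and 3.03% higher at d0, and 5.98% and 1.73% at d4. Of 10 skeletal muscle markers 5 were called lower in mutant d0 (edgeR), the myogenic factor Myog at -5.33 among them, while their summed FPKM overlapped at 505 to 627 in WT d0 and 486 to 632 in mutant d0. At d4 6 of the 10 were called lower and 1 higher (limma), with sums of 6729 to 6977 in WT and 2155 to 2277 in mutant cells. Of the 10 fibroblast markers, 4 of 6 tested at d0 were called lower, with sums of 331 to 364 FPKM in WT and 154 to 171 in mutant cells, and the defining markers Thy1 and Tcf21 were at 0 in both groups. At d4 their sums were 313 to 340 in WT and 1244 to 1304 in mutant cells, of which Ly6a alone had means of 265 and 1223, and 1 of 7 was called lower and 1 higher. Of 8 smooth muscle markers 4 of 6 tested were called lower at d0 (sums 452 to 612 FPKM in WT, 208 to 254 in mutant cells, with Myh11 near 0) and 2 of 4 at d4. Both blood markers tested were called higher in mutant d0, with Hba-a1 at a mean of 41.3 FPKM against 4.98 while Ptprc was near 0. Of 3 epithelial markers tested 2 were higher and 1 lower, with sums of 93.3 to 115 FPKM in mutant cells against 28.8 to 34.6 in WT. Tendon markers had 1 of 2 called higher at d0, adipocyte markers 1 of 2 called lower, and osteoblast and chondrocyte markers none of 3 (edgeR). Endothelial and pluripotency markers summed to at most 0.396 and 0.304 FPKM in any library. Among markers past the filter in both groups at d0, 3 of 8 muscle, 3 of 5 fibroblast and 2 of 4 smooth muscle markers were called lower. The 1 blood and 1 epithelial marker left were higher, 1 of 2 adipocyte markers was lower and the 1 tendon marker was not called. Of all such genes 5.96% were lower and 2.07% higher. At d4 6 of 10 muscle, 0 of 5 fibroblast and 1 of 3 smooth muscle markers were lower, against 4.42%. The part of these markers in the matrix results was not tested.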

How the data were processed

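Poly(A) RNA of 12 libraries was sequenced as paired-end reads, and the authors deposited tables for each day with whole-number counts and FPKM per gene on mouse build mm10. No aligner or counter is named in the sources used here. The authors scaled the deposited FPKM values for each day apart, by gene length and a divisor per library. These divisors followed depth times the TMM size factor of each library, with a spread of 0.611% at d0 and 0.688% at d4, and not depth alone. The deposited count columns labelled WT d4 equalled the mutant d4 counts in all 24787 genes, so WT d4 reads were worked back from FPKM, and 100% of the values came out whole within 0.01 reads. No per-sample column was left unmapped (0). Genotypes at d0, days and the interaction were tested on reads by edgeR 4.0.16 (quasi-likelihood, TMM scaling), and genotypes at d4 by limma 3.58.1 on log2(FPKM + 1), in R 4.3.3 with Benjamini-Hochberg adjustment over all genes tested. For edgeR genes needed, by its own filter, the scaled equivalent of 10 reads at the median depth in at least 3 libraries and 15 reads in all, and for limma 0.5 FPKM in at least 3 libraries. A gene counted as past the filter in a group where all its 3 libraries reached that level. Calls needed an adjusted p under 0.05 and a log2 change over 1 in size. The ratio of the FPKM scaling between days to the TMM scaling was 0.988 in WT and 1.00 in mutant cells.

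Every called member and up to 8 uncalled members of the highest level were to be named in each comparison, with up to 3 called genes per list. The members and all lists were chosen with earlier results of these data known. Alternatives were edgeR on reads at d4, DESeq2 1.42.0 (1.20.0 in the submitters' processing notes), other size factors, quantile scaling, pseudocounts of 0.1 and 5, no low-value filter, no fold threshold, a replicate block, all 12 libraries or all genes listed at either day in the fit, and each library left out. The tests were tested on simulated data first. Replicates differed by more than sampling noise (chi-square per gene 3.30 to 23.5). Protein sequences were planned and not used here. Read intervals cover counting error only, and a group at 0 reads was put at 3 reads. The d4 result of the list of signals and factors is not reported here.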

Additional observations from a re-analysis of the deposited data

Results flagged for a closer look

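In 22 of the genes the change from d0 to d4 differed between the genotypes by edgeR's interaction test. The values are the mutant minus the WT log2 fold change. Larger below means a more positive signed change in mutant cells and smaller a more negative one, whatever its size. The change was larger in mutant cells for the small leucine-rich proteoglycans Bgn (3.08), Dcn (3.10), Ogn (5.89), Aspn (4.76) and Prelp (5.67). Among the adhesive and matricellular genes it was larger for Sparcl1 (4.24), Thbs1 (2.34) and Thbs2 (1.27), and smaller for Tnc (-2.86). Among the elastic-fibre genes it was larger for Fbln7 (3.33), Mfap2 (3.95) and Efemp1 (3.50), and smaller for Fbln1 (-3.74) and Mfap5 (-1.62). It was larger for the laminin and nidogen genes Lama2 (1.23), Lama3 (1.19), Lama4 (3.76), Lamb2 (1.90) and Nid2 (3.99), for the matrilin Matn2 (1.53), and for the crosslinking enzymes Loxl1 (1.08) and Loxl3 (1.16). Sparcl1 had 0 reads and Mfap2 1 read over the mutant d0 libraries, so their fitted values depend on the prior count and are no bound.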

How the results depend on the processing

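Without the fold threshold the counts grew to 32 lower and 3 higher at d0 and 22 lower and 16 higher at d4. Over the days they grew to 18 lower and 24 higher in WT and 9 lower and 26 higher in mutant cells. In the interaction they grew to 5 lower and 28 higher. With the threshold kept, edgeR on reads gave 18 lower and 5 higher at d4. With 1 library left out the genes called lower and higher ranged over 21 to 22 and 1 at d0, 14 to 15 and 3 at d4, 7 to 9 and 10 to 13 over the days in WT, 5 and 19 to 20 in mutant cells, and 2 to 3 and 18 to 20 in the interaction. Only values near 0 that were not called turned sign. Sparc at d4 was 0.017 under quantile scaling. With 1 library left out Lama5 at d0 ranged from -0.017 (without WT d0 replicate 2) to 0.065 and was -0.015 without mutant d0 replicate 2, the interaction of Fbn1 ranged from -0.047 (without WT d0 replicate 3) to 0.22, and that of Lox from -0.21 to 0.011 (without mutant d0 replicate 1). At d4 a pseudocount of 5 took Prelp (-0.92), Sparcl1 (-0.31), Mfap5 (-0.49), Lama4 (-0.62) and Lamb2 (0.98) inside the fold threshold, and quantile scaling took Sparcl1 (-0.93) and Fbn1 (-0.99) there. Over the days in WT, RLE size factors did so for Lama3 (-0.98), and DESeq2 lost Fmod (1.06). The interaction of Loxl1 was 0.96 without WT d0 replicate 1, and that of Lama3 fell to 0.91 without WT d4 replicate 2 and lost its call in 3 other such fits. Of the other comparisons of a value with its alternative, 1956 kept direction and side of the threshold. The cause of these changes was not tested. A replicate block left all counts as they were, at 21 lower and 1 higher at d0, 14 and 3 at d4, 9 and 12 in WT, 5 and 19 in mutant cells and 3 and 19 in the interaction. The replicate numbers did not pair the libraries, since same-numbered libraries deviated with correlations from -0.69 to 0.10 and 1 of 12 pairs was over 0.1. Depth limits the genes with few reads, such as Fmod, Mfap2, Mfap4, Eln and Comp.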
